A study of Mus musculus with 3 samples.

Results

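Lysosomal enzymes, cathepsins and the proteins around them were followed here in the lungs of 3 mice. The set is a fixed list of 35 genes for lysosomal hydrolases, their cofactors and lysosomal membrane proteins, matched by Ensembl identifier to mouse symbols. All 35 were found among the 53342 genes of the count table, and all 35 passed the filter on low counts that left 17636 genes. By role they fell into 9 cysteine cathepsins, 5 other proteases, 9 glycosidases and sulfatases, 7 genes for lipid breakdown, cofactors and cholesterol export, and 5 membrane proteins.

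The study addressed MIA-602, an antagonist of growth hormone-releasing hormone, in a mouse model of sarcoidosis in which bacterial particles raise granulomas in the lung. All 3 animals were male C57Bl/6 mice given microparticles of Mycobacterium abscessus into the trachea, at a dose equal to 1000000 bacteria in 50 µL. Each also received 5 µg of MIA-602 under the skin every day, and lungs were collected after 3 weeks. The labels give no age. They give 1 group, so every value below belongs to lungs that had both particles and drug, and neither the effect of the particles nor that of the drug can be read from it. Untreated lungs and lungs given particles alone are not analysed here. Animals are called mouse 4, mouse 5 and mouse 6 after the last digit of their labels, and sets of 3 values are always given in that order. The model rests on particles and not on live infection, and RNA came from whole lung tissue.

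The lysosome is the acidic compartment in which cells break down proteins, sugar chains and lipids taken up from outside or delivered by autophagy. Most of its enzymes are made as inactive precursors, tagged with mannose 6-phosphate, and switched on by low pH and by proteolytic cleavage, often by other cathepsins. Transcription factors of the MiT/TFE family, with TFEB the best studied, bind an E-box in the promoters of many lysosomal genes. In the lung the compartment is prominent in alveolar macrophages, which digest particles and surfactant, and in alveolar type 2 cells, whose lamellar bodies are related to lysosomes.

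The promoters are shown first because TFEB is known to bind an E-box in the promoters of many lysosomal genes. RefSeq promoter windows of build GRCm38.p6, from 250 bases before to 50 after each start, were matched to 30 of the 35 genes. Asah1, Ctsh, Ctse, Ctsb and Npc1 were not matched. The E-box core CACGTG, which reads the same on both strands, was present in the windows of 10 of 30 members (33.3%), against 8.09% of 27025 genes in the whole promoter table. The longer form TCACGTGA, which contains that core, was present in Ctsd, Ctsa, Gla and Mcoln1, or 13.3% of the matched members against 1.12% of all genes. Each match is a run of letters and was not measured as a bound site. The 4 genes with the longer form and Lamp1, chosen after its values were seen because it held the most cores, are printed 5′ to 3′ on the strand of the gene, with the core in capitals. Stretches that overlap annotated exons were kept to 30 bases.
Ctsd, minus strand, chr7:142387908-142387937: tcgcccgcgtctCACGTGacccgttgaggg
Ctsa, plus strand, chr2:164833757-164833786: ctgtCACGTGatgcagatgctCACGTGacc
Gla, minus strand, chrX:134601126-134601255: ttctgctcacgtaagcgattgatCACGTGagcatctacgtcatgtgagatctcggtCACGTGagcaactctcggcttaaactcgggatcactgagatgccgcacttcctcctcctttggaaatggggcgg
Mcoln1, plus strand, chr8:3500462-3500491: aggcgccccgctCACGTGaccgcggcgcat
Lamp1, plus strand, chr8:13158911-13159160: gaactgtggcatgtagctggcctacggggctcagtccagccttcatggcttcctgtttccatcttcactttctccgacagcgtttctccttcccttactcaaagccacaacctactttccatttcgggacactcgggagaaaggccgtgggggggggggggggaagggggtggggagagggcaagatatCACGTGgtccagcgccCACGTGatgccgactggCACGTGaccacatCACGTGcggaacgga

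The 10 genes with a core were Ctsa, Ctsd, Ctsf, Ctsl, Gaa, Gla, Glb1, Lamp1, Lgmn and Mcoln1, and together they held 17 cores. Of these, 11 lay within the 100 bases upstream of the start. Lamp1 alone had 4 cores, at −61, −45, −28 and −15. Adding a G before and a C after the longer form left 0 of 30 members and 0.37% of all genes. Median GC content was 56.3% in the members' windows and 52.7% in all windows; its part in the share of E-boxes was not tested. The matched genes with and without a core are set side by side here without a test. With a core, their median level per length was 27.8 CPM per kilobase over 10 genes, against 43.1 over the 20 matched genes without a core, and their median ratio of mouse 4 to mouse 5 was 1.24 against 1.27.

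**Figure D1:**
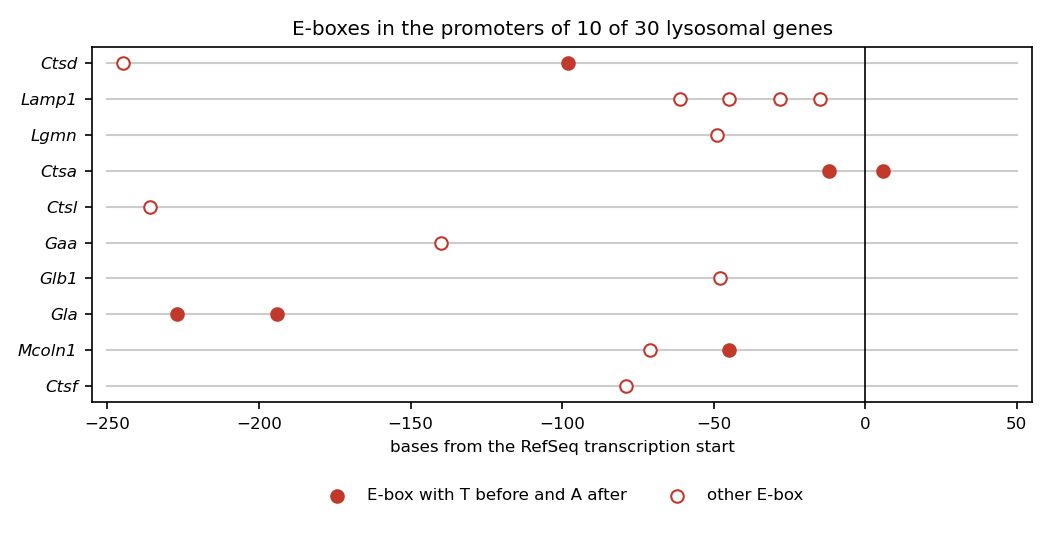
Positions of the E-box core in bases from the RefSeq transcription start (horizontal axis) for the 10 of 30 matched genes that hold it, 1 line per gene. Filled points are cores with T before and A after, open points are other cores; 11 of 17 cores lie within 100 bases upstream of the start, and Lamp1 holds 4.

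The libraries held 43845715, 35674761 and 31579465 counts. Levels are given as CPM, counts per 1000000 after scaling by edgeR's trimmed mean of M-values (TMM). Levels of different single genes are compared only as CPM per kilobase of annotated exon. Mouse 4 differed from the other animals in cell type markers. Pearson's r of log2(CPM + 0.5) across tested genes, which are not independent replicates, was 0.991 for mice 4 and 6, 0.992 for mice 5 and 6 and 0.987 for mice 4 and 5. Skeletal muscle markers summed to 5637, 2069 and 1777 CPM and were highest in mouse 4 for 8 of 8 genes, and squamous epithelial markers summed to 382, 143 and 123 CPM. Club cell markers summed to 9836, 25687 and 22752 CPM and alveolar type 2 markers to 22412, 30168 and 27066 CPM, so that the airway and alveolar markers of lung were abundant in each library and lowest in mouse 4. In whole tissue a lower level of such markers may reflect fewer cells or less RNA per cell, which cannot be told apart.

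The 35 genes together took 2.11%, 1.55% and 1.75% of all counts (1.80% ± 0.288, SD, n = 3). The median member was at 217, 182 and 182 CPM (193.6 ± 20.2, SD, n = 3), and 33 of 35 members exceeded 10 CPM in every mouse. Per kilobase of exon, 33 of 35 lay above the median tested gene, 19 lay in the top 10% of tested genes and 6 in the top 1%: Ctss, Psap, Ctsz, Ctsd, Lamp1 and Ctsb. The signal was concentrated in few genes. The 5 highest members held 73.0% ± 2.47 (SD, n = 3) of the per-kilobase sum, the 10 highest held 86.3% ± 1.44, and the 10 lowest held 1.39% ± 0.206. Cysteine cathepsins made up 48.1% ± 2.59 of this sum, lipid-handling genes 26.2% ± 0.874, other proteases 13.1% ± 0.992, membrane proteins 8.26% ± 1.11, and glycosidases with the sulfatase 4.41% ± 0.289.

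**Figure D2:**
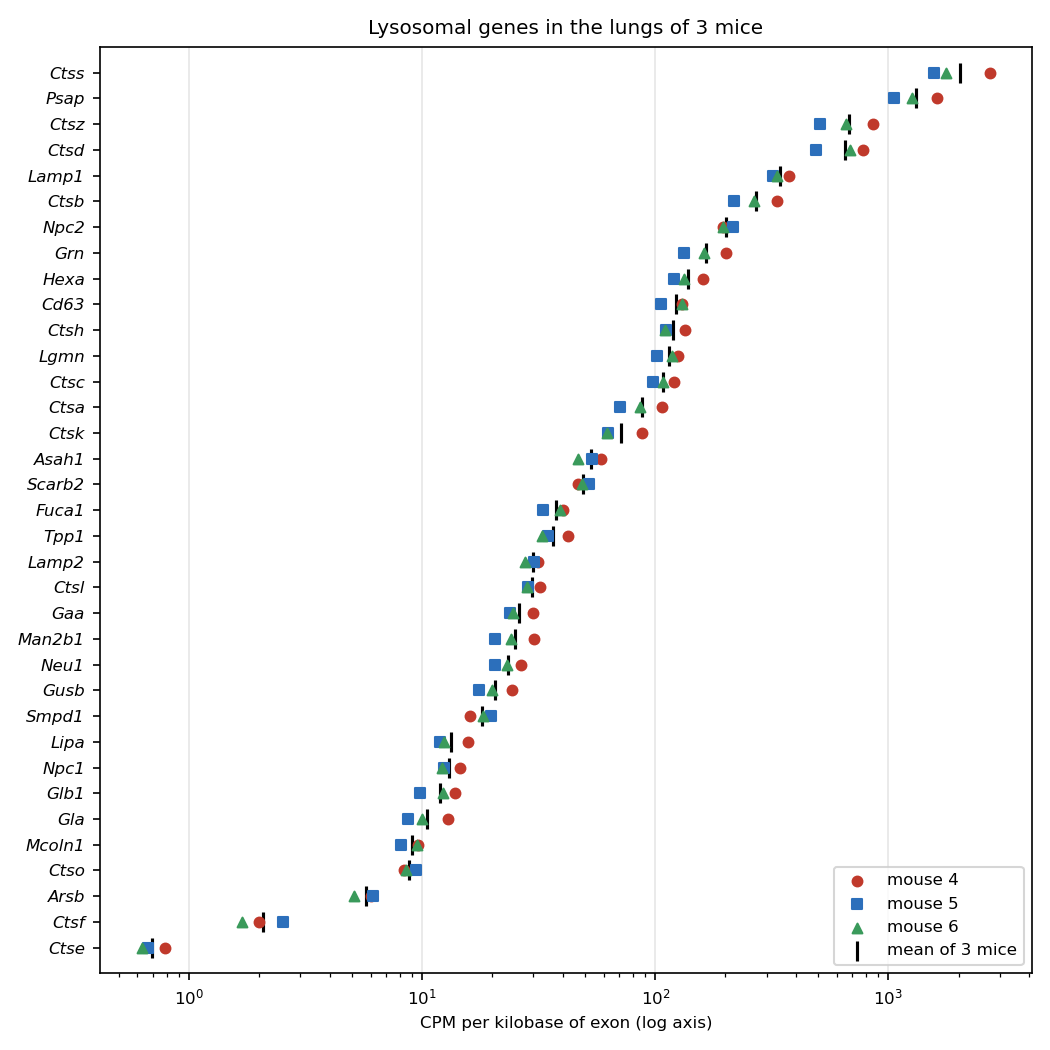
Level of each of the 35 genes in CPM per kilobase of exon (horizontal log axis), 1 row per gene in order of the mean. Coloured points are mice 4, 5 and 6 and the vertical tick is their mean; levels run from 0.691 for Ctse to 2020.1 for Ctss.

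Cysteine cathepsins included the most abundant member. Ctss, cathepsin S (ENSMUSG00000038642, chromosome 3, 95526786 to 95556403, GRCm38), trims the invariant chain from MHC class II molecules in antigen-presenting cells and works at neutral pH as well as in the lysosome. It was at 3692, 2128 and 2411 CPM (2743 ± 833, SD, n = 3), or 2020.1 ± 614 CPM per kilobase. Mouse 4 was the high animal, 1.74-fold above mouse 5 and 1.53-fold above mouse 6. Ctsz, cathepsin Z, a carboxypeptidase (chromosome 2, 174427493 to 174439039), had the third highest level per length. It was at 1239, 734 and 948 CPM (974 ± 254, SD, n = 3), again with mouse 4 highest, at 1.69-fold of mouse 5. Ctsb, cathepsin B, an abundant endo- and exopeptidase of most cells, was at 2008, 1316 and 1601 CPM (1642 ± 348, SD, n = 3), and per length stood at 271 ± 57.4 CPM per kilobase.

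Cathepsins H and C differed less between animals. Ctsh, an aminopeptidase known for processing surfactant protein precursors in alveolar type 2 cells, was at 602, 501 and 497 CPM (533 ± 59.6, SD, n = 3). Ctsc, dipeptidyl peptidase 1, which activates the granule serine proteases of neutrophils and cytotoxic lymphocytes, was at 696, 565 and 624 CPM (628 ± 65.7, SD, n = 3). Both were highest in mouse 4, and Ctsh had almost the same level in mice 5 and 6. Ctsk, cathepsin K, is the collagen-cleaving protease of osteoclasts and is also made by multinucleated giant cells and fibroblasts. Ctsk was at 133, 94.7 and 94.0 CPM (107 ± 22.4, SD, n = 3), with mouse 4 above and mice 5 and 6 close together. Ctsk lies 17.4 kb from Ctss on chromosome 3, and the neighbouring genes differed widely in level: Ctss exceeded Ctsk per kilobase 30.9-fold, 25.02-fold and 28.5-fold in the 3 mice.

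The remaining cysteine cathepsins were lower per kilobase. Ctsl, cathepsin L, a broad endopeptidase, was at 208, 185 and 182 CPM (192 ± 14.4, SD, n = 3). Per kilobase Ctsl was 67.6-fold ± 15.3 below Ctss and 9.13-fold ± 1.37 below Ctsb. With the longest transcript as the length these ratios were 64.4 and 11.1. They rest on annotated exon lengths of 6489 bases for Ctsl and 1358 for Ctss, and a shorter Ctsl transcript would make them smaller. Which transcripts gave the Ctsl reads was not tested. Ctso, a little-studied family member, was at 42.7, 48.3 and 43.6 CPM (44.9 ± 3.03, SD, n = 3). Ctsf, cathepsin F, another protease able to cut the invariant chain, was at 10.03, 12.8 and 8.51 CPM (10.4 ± 2.16, SD, n = 3). Ctso and Ctsf went the other way from the abundant cathepsins, with their highest value in mouse 5. Ctsf spanned 1.5005-fold between mouse 5 and mouse 6, on counts of 462 and 270.

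The aspartic protease Ctsd, cathepsin D (ENSMUSG00000007891, chromosome 7, 142375911 to 142388038, minus strand), led the other proteases. It was at 1838, 1147 and 1611 CPM (1532 ± 352, SD, n = 3), with mouse 5 low at 1.60-fold below mouse 4. Ctsd shares 808 of its 2351 exonic bases (34.4%) with the same-strand gene model Gm49369, which was at 0 counts in each library. How reads of such shared bases were counted is not known; if they were dropped, the level of Ctsd and its ratios to other genes are too low. Ctse, cathepsin E, an endosomal aspartic protease (chromosome 1, 131638306 to 131675505), was the lowest member. It had 107, 76 and 63 counts, or 2.48, 2.10 and 1.99 CPM (2.19 ± 0.260, SD, n = 3). Ctse was detected in every library, and over the 3 libraries its 246 counts correspond to 2.22 CPM with an exact 95% Poisson interval from 1.95 to 2.51 that covers counting error only. Ctsd exceeded Ctse 942-fold ± 185 per kilobase, or 699-fold with the longest transcript as the length.

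Lgmn, legumain, cuts after asparagine and helps to activate other cathepsins, and was at 289, 235 and 274 CPM (266 ± 27.9, SD, n = 3). Ctsa, protective protein/cathepsin A, is a carboxypeptidase that stabilises β-galactosidase and neuraminidase 1 in a common complex. Ctsa was at 502, 331 and 404 CPM (412 ± 85.5, SD, n = 3). Mouse 4 was 1.51-fold above mouse 5 for Ctsa. Per kilobase Ctsa exceeded its partners, Glb1 by 7.28-fold ± 0.391 and Neu1 by 3.71-fold ± 0.288, and these ratios varied less between mice than the level of Ctsa itself. With the longest transcript as the length the mean ratios were 8.79 and 4.65. Tpp1, tripeptidyl peptidase 1, which removes tripeptides from protein ends, was at 217, 178 and 169 CPM (188 ± 25.5, SD, n = 3).

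Glycosidases and the sulfatase, which take sugar chains apart from their ends, were of middle to low level. Hexa, the α subunit of β-hexosaminidase, which acts on GM2 ganglioside, was at 321, 239 and 265 CPM (275 ± 41.6, SD, n = 3) and was the highest of the 9 per kilobase. Man2b1, α-mannosidase, was at 242, 165 and 192 CPM (199.7 ± 39.2, SD, n = 3). Mouse 4 was high and mouse 5 low for both Hexa and Man2b1. Gaa, acid α-glucosidase, which degrades lysosomal glycogen, was at 142, 114 and 117 CPM (124 ± 15.6, SD, n = 3). Fuca1, α-fucosidase, was at 131, 108 and 127 CPM (122 ± 12.2, SD, n = 3).

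Gusb, β-glucuronidase, was at 110.4, 79.8 and 90.4 CPM (93.5 ± 15.5, SD, n = 3). Neu1, which removes terminal sialic acid, was at 99.5, 76.8 and 86.2 CPM (87.5 ± 11.4, SD, n = 3). These levels kept the same order of animals, mouse 4 above 6 above 5. Glb1, β-galactosidase, was at 41.5, 29.5 and 37.1 CPM (36 ± 6.06, SD, n = 3). Gla, α-galactosidase A, the X-linked enzyme lacking in Fabry disease, was at 42.2, 28.3 and 32.7 CPM (34.4 ± 7.08, SD, n = 3). Glb1 and Gla followed that order as well. Arsb, arylsulfatase B, which desulfates dermatan and chondroitin sulfate, was the exception among these 9 genes. Arsb was at 36.5, 37.0 and 30.8 CPM (34.8 ± 3.45, SD, n = 3), nearly equal in mice 4 and 5 and lowest in mouse 6.

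Among genes for lipid breakdown and export, Psap dominated. Psap encodes prosaposin, the precursor of the 4 saposins that lift sphingolipids out of membranes for their hydrolases (ENSMUSG00000004207, chromosome 10, 60277627 to 60302597). Psap was at 4439, 2898 and 3469 CPM (3602 ± 779, SD, n = 3), or 1313 ± 284 CPM per kilobase, with mouse 4 at 1.53-fold of mouse 5. Grn, progranulin, which binds prosaposin and is cleaved into granulins in the lysosome, was at 697, 463 and 564 CPM (575 ± 118, SD, n = 3). The 2 genes moved nearly in parallel from mouse to mouse. Psap exceeded Grn per kilobase by 8.06-fold, 7.93-fold and 7.79-fold (7.93 ± 0.134, SD, n = 3). With the longest transcript as the length the mean was 5.51-fold, so the SD between mice does not cover the choice of length.

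Npc2 and Npc1 hand cholesterol on within the lysosome and out of it. Npc2, the soluble carrier, was at 1065, 1166 and 1057 CPM (1096 ± 60.6, SD, n = 3), with mouse 5 highest. Npc1, the membrane exporter, was at 164, 139.6 and 137 CPM (147 ± 15.0, SD, n = 3), with mouse 4 highest. The soluble partner was the more abundant, with Npc2 at 15.6-fold ± 1.97 of Npc1 per kilobase, or 13.1-fold with the longest transcript as the length. Asah1, acid ceramidase, was at 198, 182 and 158 CPM (179 ± 19.7, SD, n = 3). Lipa, lysosomal acid lipase, which frees cholesterol and fatty acids from lipoprotein lipids, was at 106, 80.8 and 84.3 CPM (90.5 ± 13.9, SD, n = 3). Smpd1, acid sphingomyelinase, was lowest in mouse 4. It was at 53.7, 65.6 and 61.1 CPM (60.1 ± 5.98, SD, n = 3).

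The membrane proteins had the narrowest spread of the 5 roles, with a median ratio of the highest to the lowest mouse of 1.17 against 1.25 for all members. Lamp1, the most abundant glycoprotein of the lysosomal membrane in this set, was at 1006, 858 and 889 CPM (918 ± 77.7, SD, n = 3). Lamp2, whose A isoform serves chaperone-mediated autophagy, was at 301, 289 and 265 CPM (285 ± 18.4, SD, n = 3). Both were highest in mouse 4, by small margins. Lamp1 exceeded Lamp2 per kilobase by 11.5-fold ± 0.788 (SD, n = 3), and by 5.21-fold when the longest transcript was taken as the length. Cd63, a tetraspanin of late endosomes and exosomes, was at 481, 389.8 and 478 CPM (449.7 ± 52.0, SD, n = 3), with mouse 5 low. Scarb2, the receptor that carries β-glucocerebrosidase to lysosomes, was at 294, 326 and 303 CPM (308 ± 16.2, SD, n = 3), with mouse 5 high. Mcoln1, the lysosomal calcium channel TRPML1, was at 72.6, 61.0 and 71.8 CPM (68.5 ± 6.49, SD, n = 3).

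The order of levels per kilobase started with Ctss, Psap, Ctsz, Ctsd, Lamp1, Ctsb, Npc2, Grn, Hexa and Cd63. Of the 34 neighbouring pairs in the full order, 21 were in the same order in all 3 mice. The other pairs, which did not differ beyond their spread, included Ctsz and Ctsd, Npc2 and Grn, Cd63 and Ctsh, Ctsh and Lgmn, Lamp2 and Ctsl, and Lipa and Npc1. With the longest transcript as the length, 8 of the 10 genes stayed in the leading 10, Ctsc and Ctsh replacing Hexa and Cd63. That choice raised the level per kilobase of 10 members by more than 1.5-fold, up to 2.65-fold for Lamp2.

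Across the set, 29 of 35 members (82.9%) had their highest level in mouse 4, against 33.4% of all tested genes and 34.7% of the 10917 tested genes of at least 10 CPM. Mouse 5 was highest for 6 members, Npc2, Scarb2, Smpd1, Ctso, Arsb and Ctsf, against 36.4% of tested genes. Mouse 6 was highest for 0 members, against 30.2%. The order mouse 4 above 6 above 5 held for 21 of 35 members and for 19.7% of tested genes. The median ratio of mouse 4 to mouse 5 was 1.23 over the members and 1.002 over tested genes. By role, mouse 4 was highest for 7 of 9 cysteine cathepsins, 5 of 5 other proteases, 8 of 9 glycosidases and sulfatases, 5 of 7 lipid-handling genes and 4 of 5 membrane proteins. Between the other animals, 21 of 35 members were higher in mouse 6 than in mouse 5, against 49.9% of tested genes, with a median ratio of 1.10; this comparison was chosen after the data were seen.

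**Figure D3:**
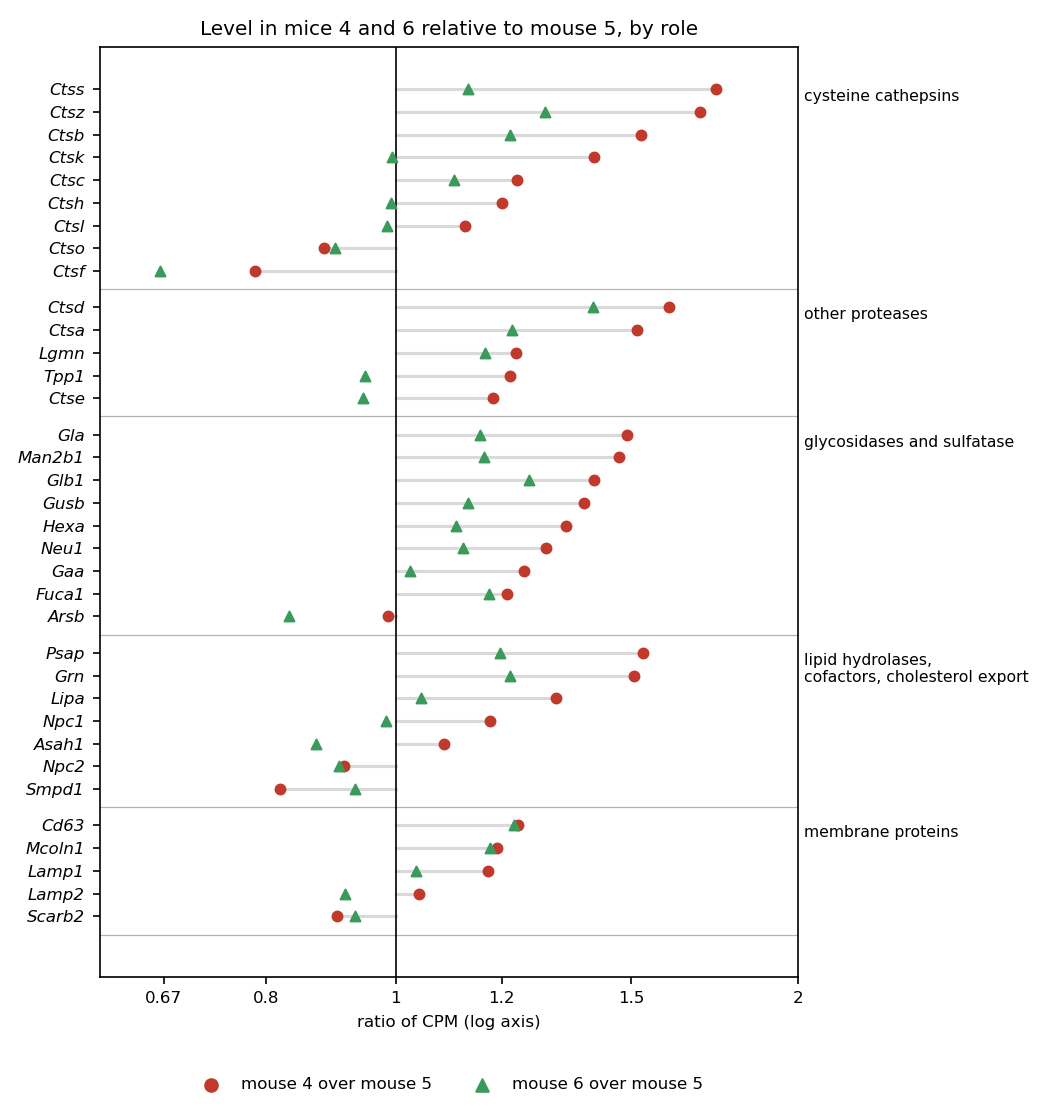
Ratio of CPM in mouse 4 (circles) and in mouse 6 (triangles) to CPM in mouse 5 (horizontal log axis) for each member, grouped by role. Most circles lie to the right of 1, at a median of 1.23, and the triangles have a median of 1.10; grey bars run from 1 to the mouse 4 ratio.

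The size of the spread is given against both backgrounds. The more abundant background holds tested genes with a mean of at least 10 CPM over the mice. Ctsf, at a mean of 10.4 CPM, belongs to it, and Ctse, at 2.19 CPM, is the only member that does not. The highest mouse exceeded the lowest by more than 1.5-fold for 8 of 35 members, Ctsb, Ctsf, Ctss, Ctsz, Ctsa, Ctsd, Psap and Grn. This share of 22.9% equals the 22.9% of all tested genes past that fold, and exceeds the 10% of tested genes of at least 10 CPM. Apart from Ctsf, mouse 4 was highest and mouse 5 lowest for these genes. The median coefficient of variation was 12.5% over the members, 11.2% over all tested genes and 8.31% over tested genes of at least 10 CPM. The count past 1.5-fold depended on the scaling and on the animals. With library totals alone it was 4 members, against 23.2% of tested genes. Without mouse 4 it was 1 member, Ctsf, against 9.96% of tested genes, and without mouse 5 it was 1 member, Ctss, against 10.8%. Without mouse 6 it was 7 members, against 15.8%.

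A test of whether a gene varied between the mice more than genes of its level do, by edgeR's quasi-likelihood fit with Benjamini-Hochberg adjustment over 17636 genes, called 0 members and 0% of tested genes. The smallest adjusted p of any tested gene was 0.806 by this fit. Myh1, a skeletal muscle marker that spanned 3.32-fold between mice, was not called either. The widest span of a member was 1.74-fold, for Ctss, so 0 calls do not show that the members vary as genes of their level do. At an unadjusted p under 0.05 the test held 867 tested genes (4.92%) and 0 of 35 members. The trend and the spread around it were fitted to these same genes, so a share over all genes near the threshold is largely set by the fit. With no filter on low counts, 8 of 35 members and 8.02% of 30751 genes had such a p, and the smallest adjusted p of a member was 0.175 by the same edgeR fit with Benjamini-Hochberg adjustment. The fitted dispersion lay above the trend for 27 of 35 members and 44.1% of tested genes, and without mouse 4 for 11 of 35 members and 33.9% of tested genes. DESeq2 and limma also called 0 genes, with 207 and 850 at an unadjusted p under 0.05. The smallest member p was that of Ctsk, at 0.0734, with an adjusted p of 0.955 by edgeR's quasi-likelihood fit with Benjamini-Hochberg adjustment, and Ctsz at 0.0868 and Ctss at 0.0929 came next. With 3 animals the common direction in mouse 4 is a description of these libraries.

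Most macrophage markers were highest in mouse 4, as most members were. Of 10 such genes this held for 7, against 33.4% of tested genes. None was at 0, and their summed level was 2692, 1945 and 2357 CPM. C1qa, a complement component made by tissue macrophages, was at 698, 425 and 581 CPM, and C1qb and C1qc followed the same order. The other 3 markers did not follow. Chil3, a protein abundant in alveolar macrophages, was at 352, 429.9 and 399 CPM and was lowest in mouse 4. Mrc1, at 40.1, 51.3 and 47.3 CPM, was also lowest in mouse 4. Marco, at 76.0, 45.8 and 87.8 CPM, was highest in mouse 6. In plain CPM, without correction for length, the summed level of the 35 members was 7.996, 7.85 and 7.38 times that of the macrophage markers (7.74 ± 0.325, SD, n = 3). The marker sum holds Chil3 and Mrc1, which were lowest in mouse 4, so this ratio depends on which markers are summed. Its evenness between mice is not a measure of macrophage content. Neutrophil markers summed to 269, 236 and 177 CPM, and the 7 alveolar type 2 and 5 endothelial markers were highest in mouse 5. The part of macrophages, and of the muscle and squamous RNA in mouse 4, in the members' levels was not tested.

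**Figure D4:**
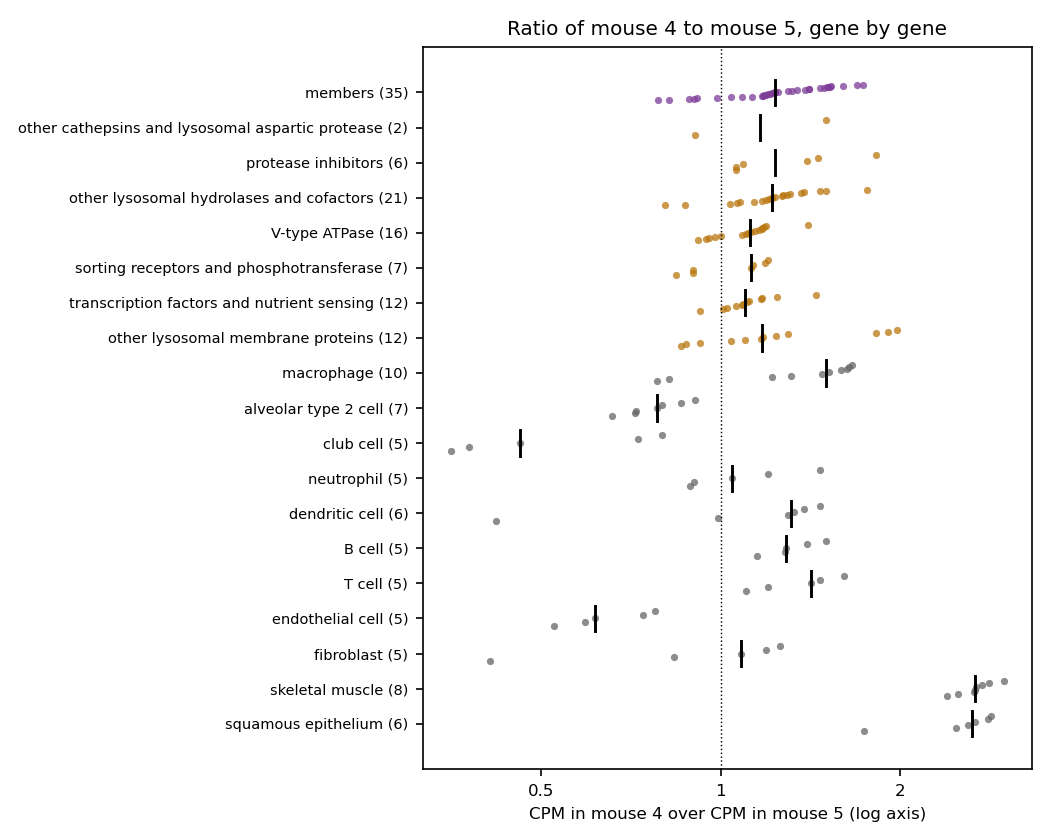
Ratio of CPM in mouse 4 to CPM in mouse 5 (horizontal log axis) for each gene of the lysosomal set, of the other lysosomal lists and of the cell type marker lists, 1 row per list with its median marked. The dotted line is the median of tested genes, 1.002; the median is 1.23 for the members, 1.499 for macrophage markers and 2.67 for skeletal muscle markers.

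Of 89 further genes of the lysosomal system, 76 could be tested. Of these, 52 (68.4%) were highest in mouse 4, against 33.4% of tested genes. None passed edgeR's test of spread after adjustment. By that test 6 of 76 had an unadjusted p under 0.05, against 4.92% of tested genes. Among 12 other cathepsins and related proteases, Napsa, the aspartic protease of alveolar type 2 cells, was at 314, 347 and 328 CPM, higher in mouse 5 as its cell type's markers were. Ctsd exceeded Napsa per kilobase by 5.31-fold ± 1.46 (SD, n = 3), or by 3.44-fold with the longest transcript as the length. Ctsw, a cathepsin of cytotoxic lymphocytes, was at 38.6, 25.7 and 50.3 CPM. Ctsw was highest in mouse 6, as were 5 of 5 T cell markers. Cts3, Cts6, Cts7, Ctsm, Ctsq, Ctsr and Ctsll3, cathepsins of the rodent placental cluster, had 0 counts in each library, where 3 counts would correspond to 0.0696, 0.0830 and 0.0946 CPM.

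Of 6 tested inhibitors of cathepsins and related proteases, 5 were highest in mouse 4, against 33.4% of tested genes. Cst3, the secreted cystatin C, varied little, at 987, 929 and 1008 CPM, and was highest in mouse 6. The ratio of Cst3 to Ctss per kilobase was 0.287, 0.468 and 0.449, lowest in mouse 4. Its mean was 0.401 ± 0.0996 (SD, n = 3), or 0.589 with the longest transcript as the length. Cst7, cystatin F, an inhibitor of Ctsc that immune cells place in lysosomes, was at 57.6, 31.6 and 36.2 CPM. The ratio of Ctsc to Cst7 per kilobase was 2.05, 3.03 and 2.93, lowest in mouse 4, with a mean of 2.67 ± 0.540 (SD, n = 3), or 4.82 with the longest transcript as the length. Cst7 was 1.82-fold higher in mouse 4 than in mouse 5, with an unadjusted p of 0.0167 and an adjusted p of 0.955 by edgeR with Benjamini-Hochberg adjustment. Cstb, the cytosolic stefin B, was at 225, 161 and 195 CPM.

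Other hydrolases resembled the members, with 19 of 21 highest in mouse 4, against 34.7% of tested genes of at least 10 CPM. Gm2a, the activator protein that presents GM2 ganglioside for hydrolysis, was at 557, 371 and 456 CPM. Acp5, tartrate-resistant acid phosphatase of osteoclasts and activated macrophages, was at 242, 137 and 186 CPM. Mouse 4 was highest and mouse 5 lowest for Gm2a and Acp5. The 16 V-type ATPase genes of the lysosomal proton pump spanned less than these hydrolases. Their median ratio of the highest to the lowest mouse was 1.15, against 1.27 for the hydrolases and 1.17 for tested genes of at least 10 CPM. Of the 16 genes, 9 were highest in mouse 4, against 34.7% of those tested genes. None spanned more than 1.5-fold, against 10% of those tested genes. The median ratio of mouse 4 to mouse 5 was 1.12 for the 16 genes. Atp6v0b was at 253, 228 and 272 CPM, and Atp6v1g1 at 194, 204 and 201 CPM.

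Of 7 sorting receptors and related genes, 4 were highest in mouse 4, against 34.7% of tested genes of at least 10 CPM. Their median ratio of the highest to the lowest mouse was 1.19, against 1.17 for those tested genes. M6pr, the cation-dependent mannose 6-phosphate receptor that carries hydrolases to the lysosome, was at 276, 246 and 252 CPM, and Sort1, sortilin, was at 245, 273 and 231 CPM. The transcription factors of the MiT/TFE family were all detected. Tfeb was at 48.7, 39.2 and 43.5 CPM (43.8 ± 4.75, SD, n = 3). Tfe3 was the highest of the family, at 87.0, 78.6 and 92.7 CPM (86.1 ± 7.12, SD, n = 3) and 9.30 CPM per kilobase. Mitf was at 32.7, 22.7 and 22.2 CPM (25.9 ± 5.92, SD, n = 3), with mouse 4 above the others, and Tfec at 15.7, 13.5 and 13.8 CPM (14.3 ± 1.21, SD, n = 3). Tfeb, Mitf and Tfec were highest in mouse 4, while Tfe3 was highest in mouse 6. In the whole list of transcription factors and nutrient sensing, 9 of 12 genes were highest in mouse 4, against 34.7% of tested genes of at least 10 CPM. A link between these factors and the members' levels was not tested.

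Other lysosomal membrane proteins were mixed, with 6 of 12 highest in mouse 4 and 3 past 1.5-fold. Of tested genes of at least 10 CPM, 34.7% were highest in mouse 4 and 10% were past 1.5-fold. Those 3, of which Gpnmb and Slc11a1 were chosen after their values were seen, are genes known from macrophages. Cd68, macrosialin, was at 488, 247 and 301 CPM, 1.98-fold higher in mouse 4 than in mouse 5. Gpnmb, a glycoprotein of lipid-laden macrophages, was at 759, 398 and 419.7 CPM. Slc11a1, which pumps metal ions out of the phagosome and was named for resistance to intracellular bacteria, was at 135, 74.1 and 90.7 CPM. Mouse 4 was the high animal for all 3, with unadjusted p of 0.0213, 0.0232 and 0.0190 and, by edgeR with Benjamini-Hochberg adjustment, an adjusted p of 0.955 for each. Lamp3, the lamellar body protein of alveolar type 2 cells, was at 519, 606 and 510.3 CPM, highest in mouse 5. Laptm4a, at 437, 472 and 418 CPM, was also highest in mouse 5. Laptm5, a lysosomal protein of blood-derived cells, was at 704, 569.6 and 836 CPM, highest in mouse 6.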

How the data were processed

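RNA from whole lung was sequenced for 3 mice. The authors deposited a table of raw counts per Ensembl gene. Per the submitters' processing notes, bcl2fastq 2.17, Trim Galore 0.6.2 and STAR 2.5.2a were used with mm10; for counting, the program, strand use and annotation were not given in the sources used here. Identifiers were matched to GENCODE M21 (53237 of 53342, 99.8%), whose union exons gave lengths on GRCm38. Genes were filtered with filterByExpr and scaled by TMM (edgeR 4.0.16, R 4.3.3). Spread was tested with edgeR's quasi-likelihood fit with an intercept only, each gene's residual dispersion against the trend by an upper-tail F test, Benjamini-Hochberg adjustment and a threshold of 0.05; the test was checked on data with known answers. DESeq2 1.42.0, limma 3.58.1, other scalings, no filter and each mouse left out were alternatives. The design held 1 group, so no conditions were compared. The labels describe 3 selected mice, taken as separate animals.

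All members were named, and so was the MiT/TFE family. Of each other list, up to 4 genes of highest level per kilobase were named, or of highest CPM for cell type markers. Cts3, Cts6, Cts7, Ctsm, Ctsq, Ctsr and Ctsll3 were named after their counts were seen, as genes at 0. Gpnmb, Slc11a1, Mrc1 and Marco were named after their values were seen. Members and lists were chosen with earlier results of these data known. Without strand, reads in exonic bases shared with opposite-strand genes cannot be told apart: for Ctsb 12.8% of its bases, with Fdft1 (1672 to 2012 counts), and for Ctsa 10.5%, with Pltp (8046 to 10806 counts). Ctsl (26.8%) and Arsb (32.3%) share bases with the antisense models Gm47123 and Gm26527, at 1 to 4 counts. Intervals cover counting error only. Some genes of these lists are not reported here.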

Additional observations from a re-analysis of the deposited data

How the results depend on the processing

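With 3 mice of 1 group these levels describe lungs given particles and drug. Depth mattered most for Ctse, with 63 to 107 counts a library, while the other members had at least 270. No paired analysis was possible because all samples belong to 1 group. With DESeq2 size factors or library totals, 0 of 35 mean member levels moved by more than 1 SD. The TMM factors ran only from 0.983 to 1.014, so a mean over mice could hardly move that far, and this count says little about the scaling. The median member level ranged from 182.0 to 199.6 CPM and the members' share of counts from 1.65% to 1.93% with 1 mouse left out. Members spanning more than 1.5-fold numbered 4 with library totals alone (Ctsf, Ctss, Ctsz and Ctsd), against 23.2% of tested genes. They numbered 1 to 7 with 1 mouse left out, against 9.96% to 15.8% of tested genes. Members highest in mouse 4 numbered 27 with library totals, against 27.6% of tested genes, and 29 without mouse 6 and 32 without mouse 5, against 50.5% and 49.7% of tested genes; that count cannot be made without mouse 4. The test of spread called 0 members under each of the 9 alternatives, although without the filter it called 629 of 30751 genes and gave 8 members an unadjusted p under 0.05, and without mouse 4 it called 13. Of the 10 leading genes per kilobase, 8 stayed with the longest transcript as length and 9 to 10 with 1 mouse left out, Ctss remaining first. The comparison of mouse 6 with mouse 5 was chosen after seeing the data, and the same 21 members were higher in mouse 6 under each scaling.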
